A study of Mus musculus with 6 samples.

Results

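Annexins are cytosolic proteins that attach to membranes carrying acidic phospholipids when calcium rises. Each has a conserved membrane-binding core and its own N-terminal tail, and several bind small calcium-binding proteins of the S100 family through that tail. They are known for linking membrane to cortical actin, for sealing torn plasma membrane and, at the cell surface, for binding plasminogen activators and slowing blood clotting. Several were first purified from human placenta as anticoagulant proteins.

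The genes examined were Anxa1, Anxa2, Anxa3, Anxa4, Anxa5, Anxa6, Anxa7, Anxa8, Anxa9 and Anxa11, 10 of the 23238 gene symbols in the count files. They were chosen by symbol after the differences between the lines were known, so their differences, and which of them passed the threshold used for all genes, are given as a description and not as independent evidence. Anxa10 and Anxa13 are annexins too, but they held at most 2 counts in any library and were not among the chosen genes.

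The data were 6 libraries of transcript 3′ tags from embryonic stem cells of the mouse strain 129/Ola, 3 from an EWS-OCT-4 stable cell line and 3 from an EGFP stable cell line that served as control. EWS-OCT-4 joins the Ewing sarcoma protein EWS to OCT-4, the pluripotency factor encoded by Pou5f1. The labels also name the construct EWS-OCT4A-GFP and the parent cells Niwa. Both lines were grown with LIF, and doxycycline at 1 µg/ml was given to both to reduce endogenous OCT-4, so neither line was measured without it. The labels give neither the promoter of the constructs nor whether a line is 1 clone. Higher, lower, rose and fell describe the EWS-OCT-4 line relative to the EGFP line, and the fusion cannot be told apart from anything else that separates the lines.

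Depth was 10978025 to 12281444 counts in the EWS-OCT-4 libraries and 13239383 to 14935887 counts in the EGFP libraries. Levels are in CPM, counts divided by library size after scaling by trimmed mean of M-values (TMM), and 1 count was worth 0.0650 to 0.0924 CPM. Pou5f1 had 18, 21 and 36 counts in the EWS-OCT-4 libraries and 5, 13 and 10 counts in the EGFP libraries. Which 3′ end the fusion transcript carries is unknown, so Pou5f1 and Ewsr1 do not check the labels. Over all tested genes 33.3% were called higher and 34.1% lower. All 10 pluripotency markers, with Pou5f1 of the fusion among them, were called higher. Their summed level was 5088 to 5705 CPM in the EWS-OCT-4 libraries and 370.0 to 478 CPM in the EGFP libraries. All 10 trophoblast markers were called lower, with a summed level of 254 to 282 CPM in the EWS-OCT-4 libraries, where Plac1 was at 0, and 4814 to 5403 CPM in the EGFP libraries. The EGFP libraries, labelled embryonic stem cells, thus held lower levels of defining stem cell markers, though to unlike degrees. Sox2 averaged 1334 ± 29.99 CPM in the EWS-OCT-4 line and 7.02 ± 4.84 CPM in the EGFP line (SD, n = 3 each). Dppa5a averaged 1269 ± 167 CPM in the EWS-OCT-4 line and 168 ± 12.2 CPM in the EGFP line. Tfcp2l1 averaged 578 ± 8.95 CPM in the EWS-OCT-4 line and 129 ± 28.0 CPM in the EGFP line. Of 8 primitive endoderm markers 5 were tested, 1 called higher and 4 lower, and their sum was 136 to 179 CPM in the EWS-OCT-4 libraries and 449 to 595 CPM in the EGFP libraries. Fibroblast markers summed to at most 32.8 CPM, blood markers to at most 186 CPM and endothelial markers to at most 135 CPM in the EWS-OCT-4 libraries, and to at most 17.3, 34.0 and 69.5 CPM in the EGFP libraries. Laptm5 (166 ± 4.44 CPM) made up most of the blood sum in the EWS-OCT-4 line, and Pecam1 (106 ± 24.4 CPM) most of the endothelial sum. Cdh5 went the other way, at 0 in the EWS-OCT-4 line and 51.0 ± 16.2 CPM in the EGFP line. Of the tested markers, 2 were called higher and 1 lower for fibroblasts and for blood, and 2 each way for endothelium. The part of these cell states in the annexin levels was not tested, and in bulk RNA fewer cells of a type and less RNA per cell cannot be told apart. The ribosomal RNA precursor Rn45s took 7.36% to 10.5% of the counts in the EWS-OCT-4 libraries and 5.85% to 6.44% in the EGFP libraries, and its part in the levels was not tested. Libraries numbered 3 stood apart: a chi-square of the counts per degree of freedom was 32.0 and 32.3 against the other EWS-OCT-4 libraries and 23.7 and 25.05 against the other EGFP libraries. Between libraries 1 and 2 it was 4.21 in the EWS-OCT-4 line and 3.96 in the EGFP line. Sox2 stood at 4.18, 4.28 and 12.6 CPM in EGFP libraries 1, 2 and 3, and Nanog at 14.5, 17.4 and 38.5 CPM. Not all stem cell markers followed, with Zfp42 at 45.5, 46.2 and 44.3 CPM. The part of these marker differences in the annexin levels of EGFP replicate 3 was not tested.

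Sequence before the transcription start is shown for 4 annexins that span the range of differences described further on, with Anxa1 and Anxa2 the most reduced, Anxa11 the least reduced of those that passed the threshold, and Anxa9 one that did not pass it. RefSeq promoter windows on GRCm38.p6, the assembly of the mm10 build, were at hand for 8 of the 10 genes, as 11 windows, and the 250 bases before each start were searched on both strands. Capitals mark matches to any of 6 motifs, picked with the differences known. The motif of the TATA box was spelled TATAAA, that of the GC box was spelled GGGCGG, and that of AP-1 was spelled TGANTCA. The core of the octamer that OCT-4 binds was spelled TGCAAAT, the motif of GATA factors was spelled AGATAA, and the motif of TEAD factors was spelled GGAATG. Distances are from the RefSeq starts, and the GENCODE starts of Anxa1 and Anxa2 lie farther upstream, so that by GENCODE the first pair of stretches lies inside the genes. That pair shows the bases around the TATA match of Anxa1 (chr19:20390687-20390716, minus strand) and of Anxa2 (chr9:69453653-69453682, plus strand).
Anxa1: tcagttcatatccTATAAAatcaggagtcc
Anxa2: aggatgGGGCGGgTATAAAagccccaccca

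The next stretch lies farther upstream of Anxa2 (chr9:69453433-69453619, plus strand) and holds its AP-1 match. It is followed by the whole window of Anxa11 (chr14:25841905-25842154, plus strand), with 3 GC boxes read on the other strand, and by the farther upstream of 2 windows of Anxa9 (chr3:95315181-95315430, minus strand), which holds none of the motifs. RefSeq assigns that window to a start of Anxa9, but it lies outside the gene as GENCODE draws it. The GENCODE gene 6330562C20Rik (95307076 to 95315127), on the same strand, lies between the window and Anxa9 and overlaps Anxa9 by 101 bases.
Anxa2: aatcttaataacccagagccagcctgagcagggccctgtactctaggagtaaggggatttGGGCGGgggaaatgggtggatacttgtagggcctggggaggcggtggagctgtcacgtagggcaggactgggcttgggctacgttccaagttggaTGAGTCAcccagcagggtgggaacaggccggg
Anxa11: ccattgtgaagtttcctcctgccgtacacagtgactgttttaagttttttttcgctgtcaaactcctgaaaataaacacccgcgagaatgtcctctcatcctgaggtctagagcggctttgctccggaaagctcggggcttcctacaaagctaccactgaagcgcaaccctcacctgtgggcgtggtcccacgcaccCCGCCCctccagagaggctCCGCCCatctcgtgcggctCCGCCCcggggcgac
Anxa9: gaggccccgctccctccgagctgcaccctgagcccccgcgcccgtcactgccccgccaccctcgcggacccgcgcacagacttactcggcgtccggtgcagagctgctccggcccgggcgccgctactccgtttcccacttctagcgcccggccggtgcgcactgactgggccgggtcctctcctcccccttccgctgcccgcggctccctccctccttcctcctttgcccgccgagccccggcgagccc

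The TATA box was matched before the RefSeq start of 2 of the 8 genes, 32 bases upstream in Anxa1 and 17 bases upstream in Anxa2. That is 2 of the 11 annexin windows, beside 12.4% of all 32851 promoter windows. The GC box was matched in 4 of the 11 annexin windows, those of Anxa2, Anxa7 and Anxa11, and in 32.7% of all windows. The 2 windows of Anxa7 overlap, and the only GC box of 1 of them, 8 bases upstream, is also in the other, 200 bases upstream. AP-1 was matched in Anxa2, 95 bases upstream, and in 6.75% of all windows. The GATA motif was in 1 window of Anxa4 and in 9.99% of all windows, and the TEAD motif was in Anxa1 and in 12.6% of all windows. The octamer core was in none of the 11 annexin windows and in 3.56% of all windows. The ratio of observed to expected CpG was 0.151 in Anxa1, 0.420 in Anxa2 and 0.838 in Anxa11, with a median of 0.374 over all windows. In Anxa9 it was 0.931 in the window shown and 0.146 in the other, so it depends on the start that is used. These matches describe letters in a window and measure no binding.

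Annexin transcripts were scarcer in the EWS-OCT-4 line. Tags of the 10 genes summed to 225, 239 and 252 CPM in the EWS-OCT-4 libraries and to 1705, 1696 and 1175 CPM in the EGFP libraries. The lines did not overlap, and EGFP replicate 3 was the lowest of its line. The mean was 239 ± 13.7 CPM in the EWS-OCT-4 line and 1525 ± 303 CPM in the EGFP line (SD, n = 3 each), 6.39-fold lower. The 10 genes passed the filter on low counts, and 8 of them were called lower, 0 higher and 2 neither way at an adjusted p of 0.05 (edgeR's quasi-likelihood test with Benjamini-Hochberg adjustment over all 13467 tested genes). Over all tested genes 34.1% were called lower, 33.3% higher and 67.4% either way, and since the genes were chosen with this contrast known, nothing is read from the comparison. In all 10 genes every EWS-OCT-4 library lay below every EGFP library, as it did in 36.7% of all tested genes. The median log2 difference was -3.13 over the 10 annexins and -0.0042 over all tested genes. A log2 difference of -4 or less was found in 3 annexins (Anxa1, Anxa2 and Anxa3) and in 4.52% of tested genes.

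**Figure D1:**
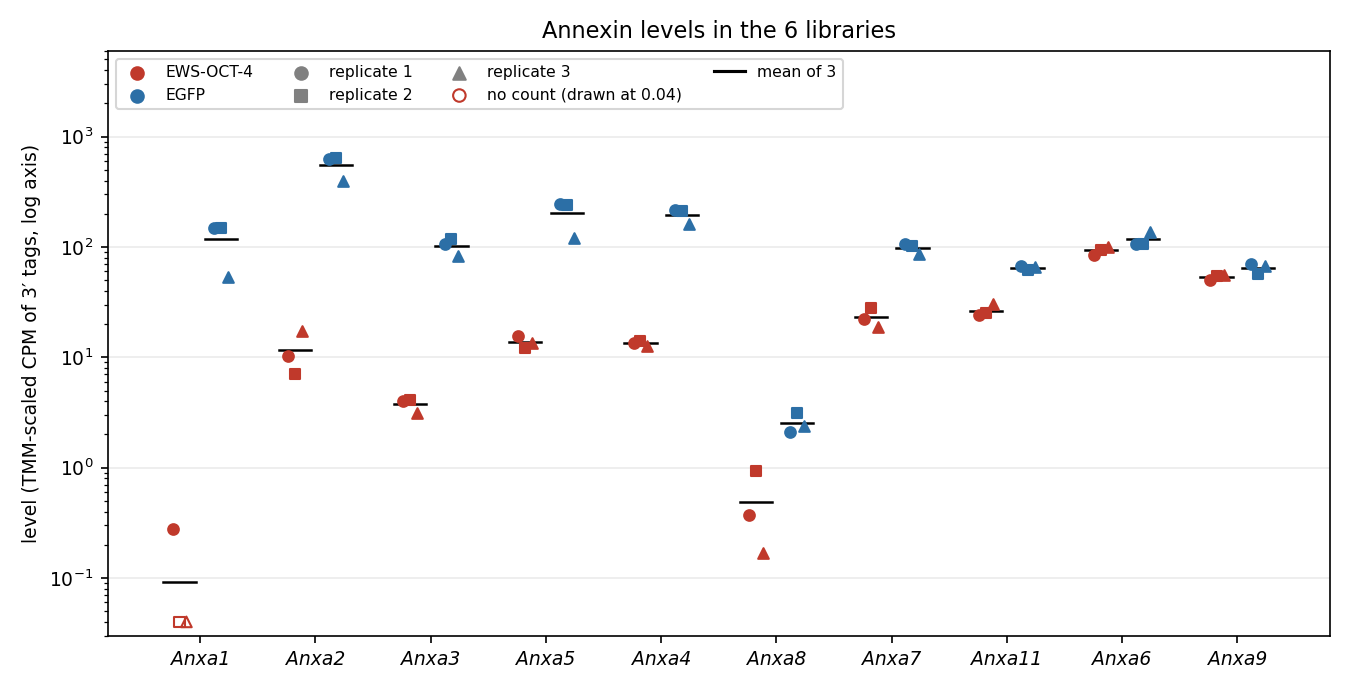
Level of each annexin (TMM-scaled CPM of 3′ tags, log axis) in the 3 EWS-OCT-4 libraries (red, left) and the 3 EGFP libraries (blue, right). Symbols stand for replicates, black lines for means of 3, and open symbols for libraries with no count; every EWS-OCT-4 library lies below every EGFP library, by a wide gap in Anxa1 to Anxa5 and a narrow one in Anxa6 and Anxa9.

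Anxa2, which pairs with S100a10 and binds plasminogen and its activator Plat at the cell surface, had the highest level of the family in the EGFP line. Its level was 10.2, 7.11 and 17.5 CPM in the EWS-OCT-4 libraries and 632, 645 and 397 CPM in the EGFP libraries. The lines were far apart, and replicate 3 was the highest of the EWS-OCT-4 libraries and the lowest of the EGFP libraries. Anxa2 averaged 11.6 ± 5.31 CPM in the EWS-OCT-4 line and 558 ± 139 CPM in the EGFP line, a log2 difference of -5.58 (SE 0.33, 95% interval -6.33 to -4.83) or 47.8-fold lower. In libraries 1 and 2 alone the log2 difference was -6.18. Anxa2 lies on chromosome 9 (GRCm38, 69453620 to 69491795, plus strand).

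Anxa1, also called lipocortin, is induced by glucocorticoids and is a ligand of formyl peptide receptors. It was close to undetected in the EWS-OCT-4 line, at 3, 0 and 0 counts per library, against 2009, 2126 and 827 counts in the EGFP libraries. In CPM these were 0.277, 0 and 0 in the EWS-OCT-4 libraries and 149.8, 149.1 and 53.8 in the EGFP libraries. EGFP replicate 3 was again the lowest of its line, but it too lay far above the EWS-OCT-4 libraries. By summed counts scaled for depth the ratio of the EGFP line to the EWS-OCT-4 line was 1290 (exact 95% interval 441 to 6259, counting error only). The 3 counts all came from EWS-OCT-4 replicate 1, and without it Anxa1 was at least 445-fold lower, with the floor set at 3 counts per library. The fitted log2 difference of -10.21 depends on the prior count. Anxa1 lies on chromosome 19 (20373428 to 20390944, minus strand). A lincRNA on the opposite strand, 1500015L24Rik, spans it and had 0 counts in every library. Of the formyl peptide receptors, Fpr1 and Fpr3 had no count in any library, and Fpr2 had 0 counts in the EWS-OCT-4 line and 2 in the EGFP line.

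Anxa3, Anxa4 and Anxa5 were named placental anticoagulant proteins, and Anxa5 is the one used to stain phosphatidylserine on dying cells. Anxa3 stood at 4.06, 4.06 and 3.11 CPM in the EWS-OCT-4 libraries and at 107.1, 118.8 and 82.5 CPM in the EGFP libraries, a log2 difference of -4.78 (SE 0.21, 95% interval -5.25 to -4.31) or 27.5-fold lower. Anxa4 stood at 13.4, 14.04 and 12.7 CPM in the EWS-OCT-4 libraries and at 216, 212 and 161 CPM in the EGFP libraries, a log2 difference of -3.88 (SE 0.16, 95% interval -4.24 to -3.51). In both genes the lines were clearly apart and EGFP replicate 3 was the lowest EGFP library. Anxa5 stood at 15.5, 12.1 and 13.5 CPM in the EWS-OCT-4 libraries and at 246, 240.4 and 121 CPM in the EGFP libraries, a log2 difference of -3.88 (SE 0.27, 95% interval -4.50 to -3.27). Its EGFP libraries spread the most of the 3 genes, with replicate 3 1.00 log2 units below the mean of the other EGFP libraries. Anxa4 and Anxa5 differed nearly alike between the lines, 14.7-fold and 14.8-fold lower, and the distance between their profiles over the 6 libraries was 0.577, the second smallest of any annexin pair. The distance is Euclidean, on log2 CPM (computed with a prior count of 2) centred on each gene's own mean. Anxa3 lies on chromosome 5 (96793339 to 96845966, plus strand), Anxa4 on chromosome 6 (86736840 to 86793584, minus strand) and Anxa5 on chromosome 3 (36448923 to 36475894, minus strand).

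Anxa8, known as vascular anticoagulant beta, was the scarcest annexin in the EGFP line. It had 4, 10 and 2 counts in the EWS-OCT-4 libraries and 28, 45 and 37 counts in the EGFP libraries. The lines did not overlap, but the counts are few, and the 95% interval of the log2 difference of -2.38 was wide (-3.68 to -1.09). Without EWS-OCT-4 replicate 2, which held most of that line's counts, it was -3.22. Anxa8 lies on chromosome 14 (34085981 to 34100571, plus strand).

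Anxa7 and Anxa11 carry long N-terminal tails. Anxa7, or synexin, binds the calcium-binding protein sorcin, and it stood at 22.2, 27.8 and 18.9 CPM in the EWS-OCT-4 libraries and at 107.4, 102 and 87.0 CPM in the EGFP libraries. The log2 difference was -2.10 (SE 0.17, 95% interval -2.49 to -1.72), 4.30-fold lower. The lines were well apart in this gene. Anxa11, which binds S100a6 and Pdcd6, stood at 24.1, 25.2 and 30.2 CPM in the EWS-OCT-4 libraries and at 66.7, 62.4 and 65.4 CPM in the EGFP libraries. The log2 difference was -1.29 (SE 0.14, 95% interval -1.61 to -0.97), 2.44-fold lower. Here the EGFP libraries lay close together, replicate 3 included. Both genes lie on chromosome 14, Anxa7 at 20455260 to 20480133 on the minus strand and Anxa11 at 25842156 to 25886804 on the plus strand. An antisense gene, Anxa11os (25856777 to 25870266), overlaps Anxa11 away from its annotated 3′ end at 25886804. Use of strand in counting is not given, so tags inside that overlap cannot be told apart. Plac9a, on the opposite strand, lies within 1000 bases past that 3′ end. It had 186 counts in the EWS-OCT-4 line and 150 counts in the EGFP line, and was not called.

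Anxa6 and Anxa9 were the exceptions, in that neither passed the threshold. Anxa6 has a doubled core, with 26 exons in its longest transcript against 12 to 15 in the other annexins, and is known for its work on late endosomes and cholesterol. It stood at 85.0, 93.3 and 100.8 CPM in the EWS-OCT-4 libraries and at 107.1, 106.5 and 137.6 CPM in the EGFP libraries. The gap between the nearest libraries was narrow, and replicate 3 was the highest of both lines. The log2 difference was -0.33 (SE 0.14, 95% interval -0.65 to -0.01). Among the alternatives that leave out libraries, it passed the threshold without EWS-OCT-4 replicate 3, at -0.39, and in libraries 1 and 2 alone, at -0.24. Anxa9, an atypical annexin that lacks working calcium sites, stood at 49.8, 54.4 and 55.5 CPM in the EWS-OCT-4 libraries and at 69.8, 57.4 and 66.98 CPM in the EGFP libraries. EGFP replicate 2 lay just above the highest EWS-OCT-4 library. The log2 difference was -0.28 (SE 0.14, 95% interval -0.59 to 0.02), and it passed the threshold in libraries 1 and 2 alone, at -0.27. The profiles of Anxa6 and Anxa9 were the nearest of any annexin pair, at a distance of 0.315. Anxa6 lies on chromosome 11 (54979108 to 55033445, minus strand) and Anxa9 on chromosome 3 (95296096 to 95307176, minus strand). The 3′ end of Anxa9 overlaps that of Mindy1, listed under its older symbol Fam63a, by 71 bases on the opposite strand. Fam63a was not called either (log2 difference -0.18), and without strand the tags of the 2 genes cannot be told apart.

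**Figure D2:**
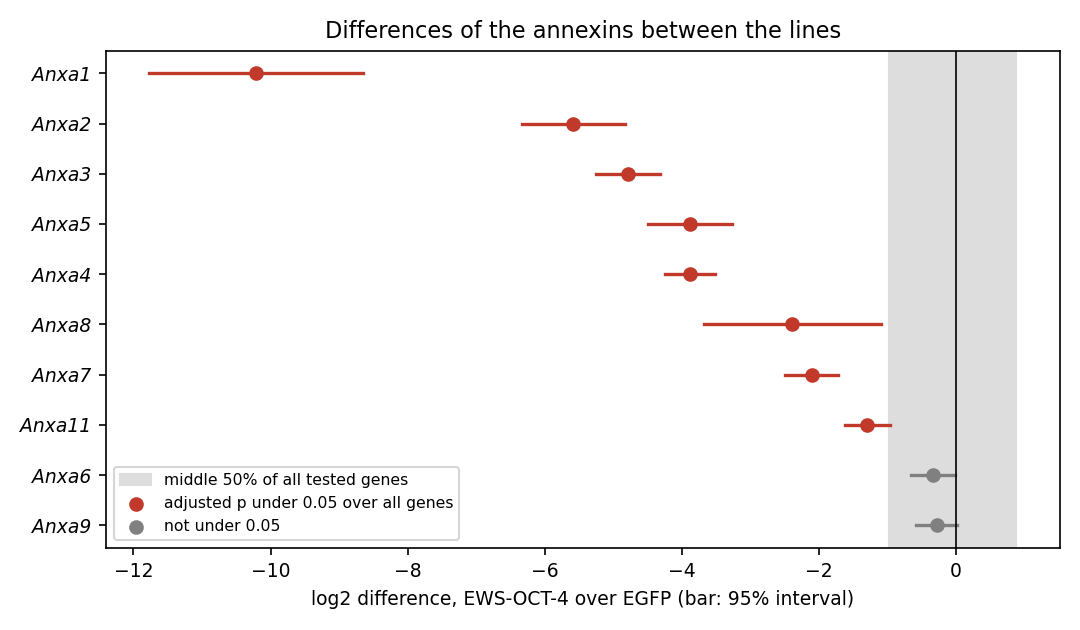
Log2 difference of each annexin, EWS-OCT-4 over EGFP, with its 95% interval; red points were under an adjusted p of 0.05 over all genes, grey points were not, and the grey band holds the middle 50% of all tested genes. The differences run down to -10.21 in Anxa1, while Anxa6 and Anxa9 lie inside the band.

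The make-up of the annexin tags differed between the lines. Tags are counted once per transcript end and were not scaled by length, so shares compare transcript tags and not mass of RNA. Anxa6 held 37.8%, 39.04% and 39.95% of the annexin tags in the EWS-OCT-4 libraries and 6.28%, 6.28% and 11.7% in the EGFP libraries. Anxa2 held 4.55%, 2.98% and 6.92% in the EWS-OCT-4 libraries and 37.1%, 38.0% and 33.8% in the EGFP libraries. The most abundant annexin was thus Anxa6 in each EWS-OCT-4 library and Anxa2 in each EGFP library. Anxa6 and Anxa9 together held 61.2% ± 1.12 of the tags in the EWS-OCT-4 line and 12.5% ± 4.28 in the EGFP line (SD, n = 3 each). Some tags counted for Anxa9 may come from Mindy1, whose 3′ end overlaps it, so the share and rank of Anxa9 carry that limit. Anxa1 to Anxa5 together held 17.8% ± 1.95 in the EWS-OCT-4 line and 76.4% ± 6.07 in the EGFP line. Without Anxa6 the summed annexin level was 9.66-fold lower in the EWS-OCT-4 line. In the EWS-OCT-4 line the mean levels ran from Anxa6 (93.1 ± 7.90 CPM) through Anxa9 (53.2 ± 3.02), Anxa11 (26.5 ± 3.27), Anxa7 (22.97 ± 4.50), Anxa5 (13.7 ± 1.71), Anxa4 (13.4 ± 0.680), Anxa2 (11.6 ± 5.31) and Anxa3 (3.74 ± 0.551) to Anxa8 (0.487 ± 0.391) and Anxa1 (0.0922 ± 0.160). Within 1 SD of their means, Anxa11 and Anxa7 overlapped, as did Anxa5, Anxa4 and Anxa2, and Anxa8 and Anxa1. In the EGFP line they ran from Anxa2 (558 ± 139 CPM) through Anxa5 (203 ± 70.5), Anxa4 (196 ± 30.7), Anxa1 (118 ± 55.2), Anxa6 (117 ± 17.8), Anxa3 (103 ± 18.6), Anxa7 (98.8 ± 10.6), Anxa11 (64.8 ± 2.22) and Anxa9 (64.7 ± 6.52) to Anxa8 (2.55 ± 0.549). There each neighbour from Anxa5 to Anxa7 overlapped the next, as did Anxa11 and Anxa9.

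**Figure D3:**
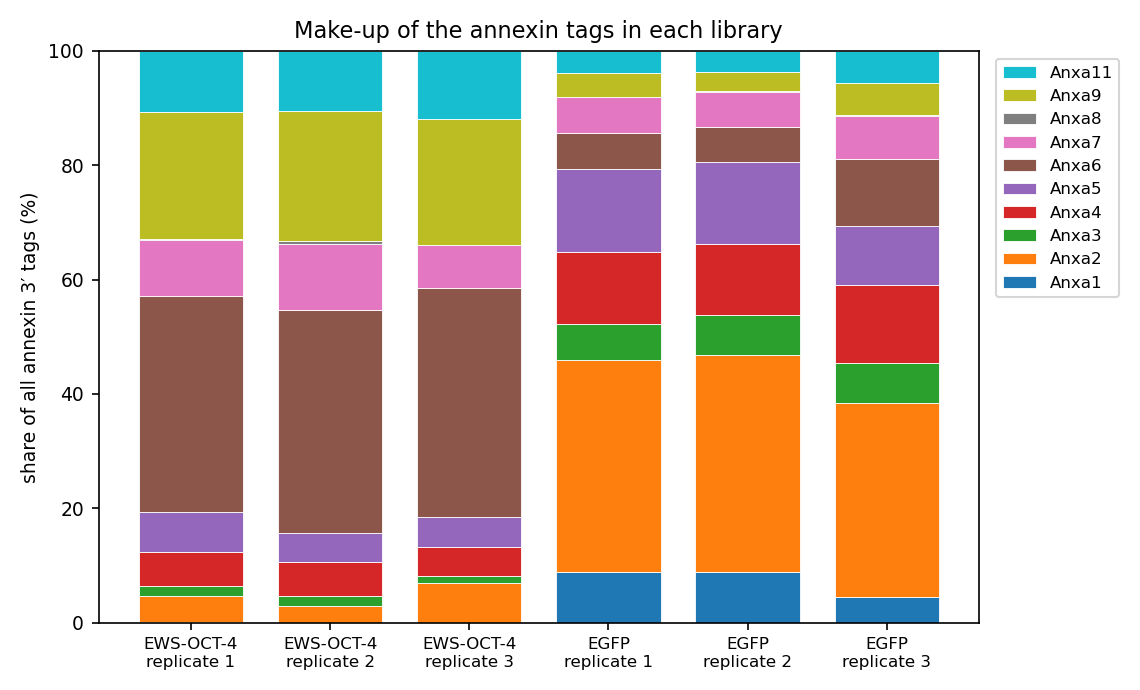
Share of all annexin 3′ tags (%) held by each of the 10 genes in the 3 EWS-OCT-4 libraries (left) and the 3 EGFP libraries (right), as stacked bars that sum to 100. Anxa6 (brown) is the broadest band in the EWS-OCT-4 libraries, at 37.8% to 39.95%, and Anxa2 (orange) in the EGFP libraries, at 33.8% to 38.0%.

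The genes with profiles nearest to Anxa2 and Anxa1, by the same distance over the 6 libraries, were taken from the 8915 tested genes whose mean level reached 10 CPM. Nearest to Anxa2 were Fam101b (distance 0.426), Chdh (0.695) and Podxl (0.726), and 12 genes lay within a distance of 1, against a median of 6.94. Fam101b averaged 2.73 ± 1.00 CPM in the EWS-OCT-4 line and 138 ± 16.1 CPM in the EGFP line. Podxl, which encodes the sialomucin podocalyxin, averaged 2.84 ± 1.34 CPM in the EWS-OCT-4 line and 166 ± 18.9 CPM in the EGFP line. Nearest to Anxa1 were Pparg (0.642), Arhgef6 (0.679) and 3830417A13Rik (1.05), against a median of 11.01. Pparg, a nuclear receptor needed for placental development and fat cell formation, averaged 0.185 ± 0.244 CPM in the EWS-OCT-4 line and 142 ± 48.9 CPM in the EGFP line. These profiles are led by the difference between the lines, so likeness here means a like difference on this log2 scale. Its prior count of 2 shrinks the differences of genes near 0. Chdh averaged 0.235 ± 0.127 CPM in the EWS-OCT-4 line and 22.7 ± 3.36 CPM in the EGFP line. Its fitted log2 difference was -6.52, against -5.58 in Anxa2. Anxa1 and the genes nearest to it were near 0 in the EWS-OCT-4 line, so their likeness is mainly one of EGFP levels.

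Genes that work with annexins, and the copines, were counted in 4 lists, in which no annexin was included. The lists were chosen with earlier results of these data known, and most genes are named for their large differences. Their counts and p-values are therefore a description and not independent evidence. Of 20 listed binding partners 19 were found by symbol and 13 were tested. Of those tested 12 were called lower, 0 higher and 1 neither way, beside 34.1% lower and 33.3% higher over all tested genes. The median log2 difference of the tested partners was -1.43. S100a10, the Anxa2 partner, which was named after its values were seen, stood at 45.3, 51.0 and 36.6 CPM in the EWS-OCT-4 libraries and at 146, 128 and 83.0 CPM in the EGFP libraries. The lines did not overlap, and the log2 difference was -1.43 (SE 0.22, adjusted p = 0.00021, edgeR's quasi-likelihood test). The difference of Anxa2 was larger, at -5.58, but the difference between the genes was not tested. Sri, the sorcin that binds Anxa7, averaged 35.8 ± 3.57 CPM in the EWS-OCT-4 line and 570.1 ± 108 CPM in the EGFP line (log2 difference -3.99, SE 0.18, adjusted p = 6.3e-08 by edgeR). S100a6, a partner of Anxa11, averaged 75.9 ± 3.75 CPM in the EWS-OCT-4 line and 398 ± 64.7 CPM in the EGFP line (-2.39, SE 0.15, adjusted p = 4.4e-07 by edgeR). S100a11, a partner of Anxa1, averaged 31.97 ± 4.62 CPM in the EWS-OCT-4 line and 262 ± 33.2 CPM in the EGFP line (-3.04, SE 0.16, adjusted p = 1.6e-07 by edgeR). The gene not called was S100a4, at a log2 difference of 1.06.

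Of 21 plasma membrane repair genes 20 were found by symbol and 17 were tested. The symbol Cavin1 was not found, and other names for it were not searched. Of those tested 13 were called lower, 1 higher and 3 neither way (34.1% and 33.3% of all tested genes were called lower and higher). The median log2 difference of the tested repair genes was -1.09. Dysf, which encodes dysferlin, the repair protein of muscle, averaged 0.716 ± 0.100 CPM in the EWS-OCT-4 line and 91.1 ± 27.7 CPM in the EGFP line (-6.97, SE 0.33, adjusted p = 9.0e-08 by edgeR). Ahnak, a giant scaffold that binds the S100a10 and Anxa2 complex, averaged 47.2 ± 1.92 CPM in the EWS-OCT-4 line and 356 ± 8.99 CPM in the EGFP line (-2.91, SE 0.11, adjusted p = 3.6e-08 by edgeR). Smpd1, the lysosomal sphingomyelinase released at wounds, averaged 11.8 ± 1.13 CPM in the EWS-OCT-4 line and 228 ± 36.5 CPM in the EGFP line (-4.27, SE 0.17, adjusted p = 4.2e-08 by edgeR). The tested gene called higher was Syt7, the calcium sensor of lysosome exocytosis, at 67.4 ± 7.12 CPM in the EWS-OCT-4 line and 3.03 ± 0.649 CPM in the EGFP line (4.47, SE 0.20, adjusted p = 7.6e-08 by edgeR). Trim72, a repair protein of muscle that was below the filter, had 6, 6 and 9 counts in the EWS-OCT-4 libraries and 0 in each EGFP library, and without the filter 2 repair genes were called higher. Chmp3 (-0.37), Capns1 (-0.06) and Vps4b (0.10) were not called. Dysf, Ahnak, S100a10, S100a11, Pdcd6 and Tsg101 are in both this list and that of binding partners, and S100a10 is in the next list too, so the counts are not independent.

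Of 12 genes of plasminogen activation at the cell surface 8 were tested, and 5 were called lower, 1 higher and 2 neither way, with a median log2 difference of -2.75. The share called is near the 67.4% called either way over all tested genes, where 34.1% were lower. Plat, the tissue activator that binds Anxa2, stood at 1.015, 0.647 and 0.420 CPM in the EWS-OCT-4 libraries and at 108, 116 and 48.6 CPM in the EGFP libraries (-7.03, SE 0.44, adjusted p = 5.5e-07 by edgeR). The lines were far apart, with EGFP replicate 3 the lowest of its line, as in Anxa1 and Anxa2. Plaur, the urokinase receptor, averaged 1.45 ± 0.202 CPM in the EWS-OCT-4 line and 24.7 ± 12.7 CPM in the EGFP line (-4.07, SE 0.46, adjusted p = 2.9e-05 by edgeR). Serpine2, or protease nexin, which inhibits serine proteases such as the activators, fell as well. It averaged 14.7 ± 1.07 CPM in the EWS-OCT-4 line and 652 ± 167 CPM in the EGFP line (-5.47, SE 0.22, adjusted p = 4.5e-08 by edgeR). Lrp1, an endocytic receptor that clears complexes of activator and inhibitor, rose, at 53.5 ± 8.32 CPM in the EWS-OCT-4 line and 7.12 ± 1.51 CPM in the EGFP line (2.91, SE 0.21, adjusted p = 1.2e-06 by edgeR). Plau (0.50) and Plgrkt (-0.52) were not called. Eno1 was listed at 0 in all libraries, so no value is given for it. Eno1b, which is not on the list, averaged 459 ± 67.3 CPM in the EWS-OCT-4 line and 183 ± 5.88 CPM in the EGFP line (1.33, SE 0.13, adjusted p = 1.2e-05 by edgeR), and whether its tags come from Eno1 was not tested.

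Copines are another family of calcium-dependent membrane-binding proteins, not related to annexins in sequence. Of 9 copines 6 were tested, and 2 were called lower, 1 higher and 3 neither way, with a median log2 difference of -0.23. Over all tested genes 34.1% were lower and 33.3% higher. Cpne5 averaged 58.8 ± 13.2 CPM in the EWS-OCT-4 line and 2.12 ± 0.0883 CPM in the EGFP line (4.79, SE 0.22, adjusted p = 8.8e-08 by edgeR). Whether the copines differ from the annexins as a family was not tested.

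**Figure D4:**
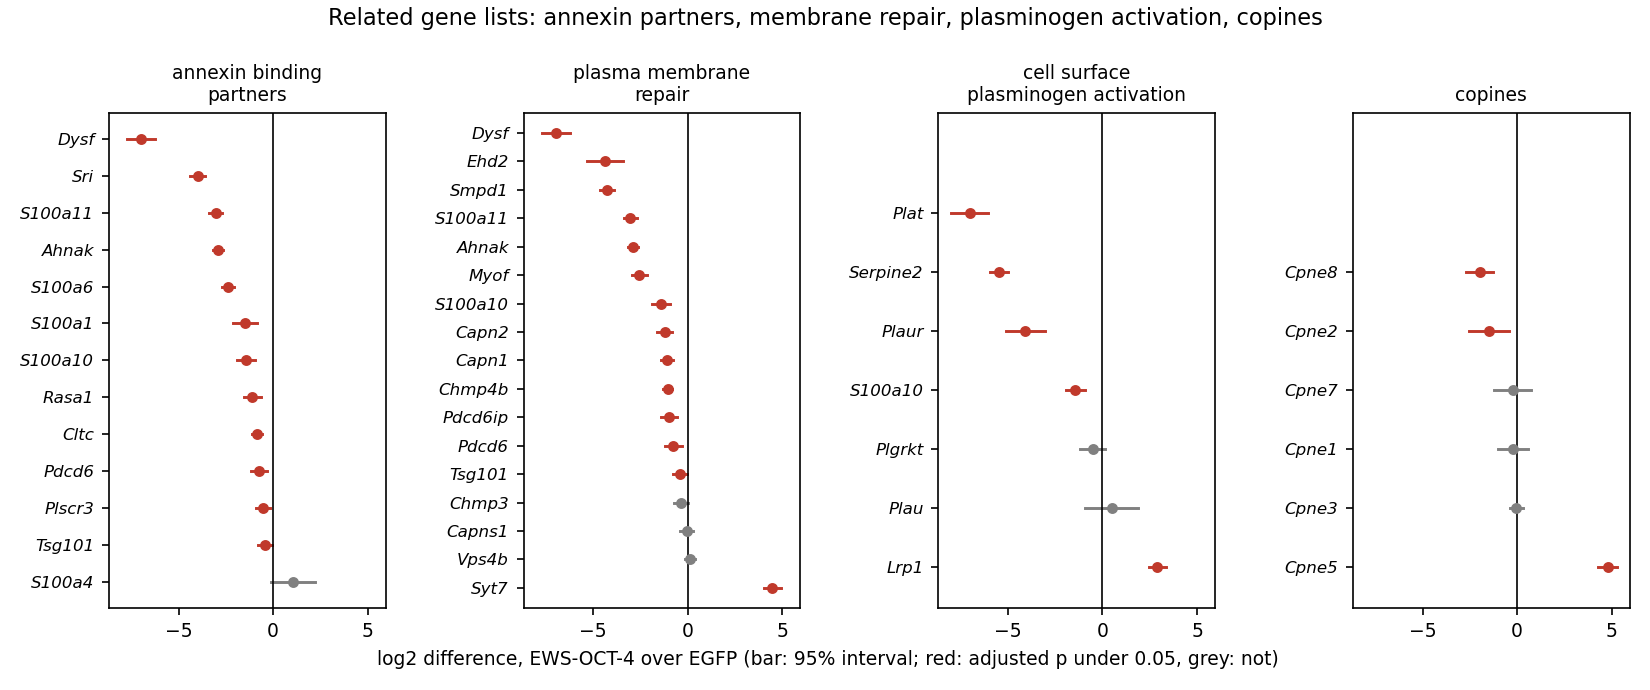
Log2 difference, EWS-OCT-4 over EGFP, with its 95% interval for tested genes of the 4 related lists; red points were under an adjusted p of 0.05 over all genes and grey points were not. Most points in the first 3 panels lie below 0, with Syt7 and Lrp1 as called exceptions, and the copines lie on both sides of 0.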

How the data were processed

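Each deposited file held the tag counts of 1 library by gene symbol, as whole numbers. Per the labels' protocols, libraries were made with a Lexogen QuantSeq kit (500 ng of total RNA), which tags transcript 3′ ends. The submitters' processing notes name Bowtie2, edgeR and mm10, with no versions or roles. How tags were counted (tool, annotation, strand) is not given in the sources used here. Files had 23282 lines and 23238 symbols. Lines of the 35 repeated symbols were summed, and 4305 symbols had no count.

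Counts were scaled by TMM (factors 0.971 to 1.03), filtered with filterByExpr (minimum count 10, total 15) and tested in edgeR 4.0.16 (R 4.3.3) by a robust 2-sided quasi-likelihood F test with no covariate, adjusted by Benjamini-Hochberg over 13467 genes at 0.05. The biological coefficient of variation was 19.3%. The procedure was tested on simulated data. Samples were grouped by title, and the labels do not tie the 3 libraries of a line to separate cultures, so p-values measure the spread between these libraries, which may be technical. The floor was 3 counts per library. Wilson and exact 95% intervals cover counting error only.

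The annexins, the related and marker lists and the motifs were chosen with earlier results of these data known. Named from each related list were called genes with the largest absolute log2 differences and a mean of at least 10 CPM, up to 5. Genes nearest to the annexin of highest mean level and to the one with the largest difference were named by distance. The values of 1 gene that met these rules are not reported here. S100a10, Trim72, Eno1b, genes not called and neighbouring genes were named after their values were seen. Alternatives were leaving out each library, libraries 1 and 2 only, a replicate block, DESeq2 1.42.0 and its size factors in edgeR, limma-voom (limma 3.58.1), no filter, a minimum mean of 10 CPM, a test against a 1.5-fold change and an adjusted p of 0.01. Coordinates are from GENCODE M21 on GRCm38. No other gene matched the last 500 bases of an annexin at 90% identity over 75 bases (BLAST 2.17.0), apart from Gm44036, which overlaps Anxa4 on the opposite strand.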

Additional observations from a re-analysis of the deposited data

How the results depend on the processing

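Of the 10 annexins 8 were called, with 8 to 9 when 1 library was left out and 7 to 10 under the other alternatives, all lower in the EWS-OCT-4 line. All 10 were called in libraries 1 and 2 alone, where 75.6% of all genes were. Over all genes 9073 were called, with 8122 to 9385 when 1 library was left out and 6335 to 10240 otherwise. Deviations of same-numbered libraries correlated at 0.04, 0.05 and 0.15 between the lines, and those of differently numbered libraries at -0.10 to 0.08. The highest value, 0.15, was between the libraries numbered 3. Whether the replicate numbers pair the samples was not tested. With a replicate block 9 annexins and 8968 genes were called, the added annexin being Anxa6 at a log2 difference of -0.32. Copines called were 3, with 3 to 5 when 1 library was left out and 1 with a mean of at least 10 CPM, where fewer genes are tested. Anxa8 is below that mean. Ewsr1, at -0.26 and not called, was at 0.063 in libraries 1 and 2 alone, and the cause was not tested. Pou5f1, at 1.76 (adjusted p = 0.011 by edgeR), was not called without EWS-OCT-4 replicate 3 (1.46, adjusted p = 0.054) or at an adjusted p of 0.01. Depth limits Anxa1 and Anxa8, at no more than 10 counts in any EWS-OCT-4 library.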
